A study of Mus musculus with 8 samples.

Results

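The genes described here are 10 components and outputs of the circadian clock, the activator Npas2, the repressors Per1, Per2, Per3, Cry1 and Cry2, the nuclear receptors Nr1d1 and Nr1d2, and the output factors Dbp and Tef. They were taken by symbol from a deposited table of 56748 genes, and all 10 were among the 16002 genes counted highly enough to be tested. The table holds whole hearts of male and female C56BL mice, 3 to 4 months old and spelled as in the labels, taken 56 days after transverse aortic constriction, a banding of the aortic arch that makes the heart pump against pressure. CS7KO hearts (numbered 1 to 4) lacked Smad7, an inhibitor of TGF-beta signalling, in cardiomyocytes, through a Cre recombinase driven by the alpha myosin heavy chain promoter, which is active in heart muscle cells. The CRE hearts (numbered 1, 2, 3 and 5) carried the same Cre and were banded too, so both groups share Cre and constriction and neither holds an unbanded heart. Whether CRE hearts also carried an altered Smad7 allele is not stated in the labels, and no time of collection is given in the sources used here. The design calls the samples independent, with 1 library per heart.

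In the clock of mammalian cells the activators CLOCK (or its relative NPAS2) and BMAL1, encoded by Arntl in this table, pair on E-box elements and switch on Per, Cry, Nr1d and Dbp genes. PER and CRY proteins then shut the activators off, and the NR1D receptors (REV-ERB alpha and beta) repress Arntl, Npas2 and Clock, so that Arntl and Npas2 peak at about the opposite time of day to Nr1d1 and Dbp. DBP and TEF, with HLF, bind D-box elements of output genes, where NFIL3 represses. In the heart this clock gives daily rhythms to metabolism and to ion channels, and the cardiomyocyte has a clock of its own.

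The members varied from heart to heart more than they differed between the genotypes, and none passed the genotype test. CRE 5 held the highest level of 5 members (Per2, Per3, Cry1, Nr1d2 and Tef), and CRE 1 the lowest of 6. Among the knockout hearts, CS7KO 1 and CS7KO 3 had far less Dbp than CS7KO 2 and CS7KO 4, with Arntl, Nfil3 and Cry2 above all other hearts. CS7KO 2 and CS7KO 4 lay within or close to the CRE range for these genes.

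Libraries stood apart in ways the genotype does not describe. Total counts ran from 16476420 to 40181492, and mitochondrially encoded genes took 15.04% to 69.8% of them in CRE and 20.2% to 24.9% in CS7KO, with 41.1% in CRE 3 and 69.8% in CRE 5. Genes with only 1 to 9 counts numbered 537 in CRE 1 and between 5848 and 19697 elsewhere, and 472 of 11984 genes with at least 30 counts in CRE 2, CRE 3 and every CS7KO library stood at 0 in CRE 1. The 4 libraries labelled female went against that label. Ddx3y, a Y-linked RNA helicase, stood at 80.7 to 104 CPM (counts scaled to library size, with TMM factors) in them and at 67.9 to 138 CPM in those labelled male, and Xist, the RNA of the silenced X, reached at most 1.03 CPM in any library. Sex below means the label. Smad7 had 28.4 ± 11.9 CPM in CRE and 18.3 ± 7.14 CPM in CS7KO (SD, n = 4 each; log2 fold change -0.59, edgeR adjusted p = 0.509), so it did not separate the genotypes. Cardiomyocyte markers summed to between 14230 and 30640 CPM in CRE and to between 28190 and 34090 in CS7KO, while of the T cell markers 1 of 3 was counted highly enough to test, at most 0.885 CPM.

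The promoters of members that carry a clock element are shown first, since E-boxes are the sites of the activators and D-boxes those of DBP and TEF. RefSeq windows on GRCm38.p6, from 250 bases before the start of transcription to 50 after it, were found for 9 of the 10 members, in 11 windows, and Per2 had none. They were searched on both strands for the E-box CACGTG, the D-box TTATGTAA and the nuclear receptor half-site AGGTCA, and no match overlapped another in a window. In the sequences below, read 5′ to 3′ on the gene's strand, capitals mark E-boxes in Tef, Per1 and Cry1 and D-boxes in Per3.
Per3, chr4:151044616-151044915, minus strand: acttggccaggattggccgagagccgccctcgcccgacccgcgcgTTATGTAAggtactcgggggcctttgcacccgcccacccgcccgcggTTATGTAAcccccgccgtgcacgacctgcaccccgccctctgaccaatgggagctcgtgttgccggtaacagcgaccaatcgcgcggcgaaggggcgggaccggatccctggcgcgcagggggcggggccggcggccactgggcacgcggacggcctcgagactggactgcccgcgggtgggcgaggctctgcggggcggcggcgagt
Tef, chr15:81802423-81802722, plus strand: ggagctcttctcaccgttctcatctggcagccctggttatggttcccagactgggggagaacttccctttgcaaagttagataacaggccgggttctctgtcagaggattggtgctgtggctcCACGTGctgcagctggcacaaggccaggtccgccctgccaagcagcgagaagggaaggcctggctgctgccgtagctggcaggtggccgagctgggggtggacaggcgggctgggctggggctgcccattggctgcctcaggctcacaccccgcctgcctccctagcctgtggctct
Per1, chr11:69098699-69098998, plus strand: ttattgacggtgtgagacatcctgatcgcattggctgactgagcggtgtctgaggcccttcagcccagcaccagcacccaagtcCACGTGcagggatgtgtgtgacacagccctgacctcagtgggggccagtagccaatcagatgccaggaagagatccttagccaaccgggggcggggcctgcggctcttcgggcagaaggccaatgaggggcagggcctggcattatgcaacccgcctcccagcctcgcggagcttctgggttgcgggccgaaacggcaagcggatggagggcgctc
Cry1, chr10:85185005-85185304, minus strand: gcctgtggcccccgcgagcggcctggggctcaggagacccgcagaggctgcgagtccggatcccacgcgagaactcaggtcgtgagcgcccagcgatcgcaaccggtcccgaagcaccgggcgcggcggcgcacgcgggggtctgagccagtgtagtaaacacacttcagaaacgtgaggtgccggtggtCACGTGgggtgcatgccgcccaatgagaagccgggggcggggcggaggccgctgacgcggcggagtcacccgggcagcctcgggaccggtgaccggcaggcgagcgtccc
An E-box lay in 4 of the 11 windows (36.4%), those of Per1, Cry1 and both windows of Tef, against 7.15% of 32851 windows of all genes. In Tef it stood at position 124 of 1 window and 113 of the other, so the same site may be counted in both. Counted by gene, 3 of the 9 members with a window had an E-box. The D-box was found in 1 window (9.09%), that of Per3, at positions 46 and 93, against 0.938% of all. The half-site was found in the windows of Per1 and Nr1d2 (18.2%, against 16.3% of all). These are matches of letters in a short window and were not tested as binding sites.

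Npas2, the activator that can stand in for CLOCK, was the least abundant member. It had 0, 56, 38 and 2 counts in CRE 1, 2, 3 and 5, or 0, 2.26, 1.35 and 0.242 CPM, and 38, 78, 130 and 33 counts in CS7KO 1 to 4, or 1.60, 3.33, 2.79 and 1.85 CPM. CS7KO 2 and CS7KO 3 lay above every CRE heart, CS7KO 1 and CS7KO 4 lay below CRE 2, and CRE 5 lay under the 0.363 CPM that 3 counts are worth there. Npas2 is one of the genes that stood at 0 in CRE 1 despite at least 30 counts in 6 other libraries, so no group mean is given. The fitted log2 fold change, knockout over control, was 1.29 (SE 1.09, 95% interval -1.14 to 3.73), with an edgeR adjusted p of 0.670, and rests on those low counts.

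Clock and Arntl, the partners that complete the activator, were highest in CS7KO 1 and CS7KO 3. Clock had 23.3, 39.6, 35.1 and 38.4 CPM in CRE 1, 2, 3 and 5, against 69.1, 34.4, 44.2 and 34.1 CPM in CS7KO 1 to 4. Arntl had 1.28, 4.12, 5.17 and 2.90 CPM in CRE and 9.19, 2.95, 10.8 and 2.41 CPM in CS7KO. For both genes CS7KO 1 and CS7KO 3 exceeded all 4 CRE hearts and CS7KO 2 and CS7KO 4 did not. The log2 fold changes were 0.41 (SE 0.31, adjusted p = 0.631) for Clock and 0.93 (SE 0.61, adjusted p = 0.569) for Arntl by edgeR.

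Among the repressors, Per1, which also responds at once to light and hormone signals, had 35.4, 46.4, 80.6 and 122 CPM in CRE 1, 2, 3 and 5. In CS7KO 1 to 4 it had 125, 85.35, 101 and 77.6 CPM. The CS7KO values all lay above CRE 1 and CRE 2, and CRE 5 came close to CS7KO 1. The group means were 71.1 ± 39.1 and 97.3 ± 21.0 CPM (SD, n = 4 each), a log2 fold change of 0.59 (SE 0.37, 95% interval -0.24 to 1.42, edgeR adjusted p = 0.550).

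Per2, a core partner of the CRY proteins, varied over the widest range of the members counted in every heart. It had 8.26, 24.3, 49.5 and 228 CPM in CRE 1, 2, 3 and 5, against 41.4, 28.3, 38.3 and 28.6 CPM in CS7KO 1 to 4. The highest heart, CRE 5, had 27.65 times the level of the lowest, CRE 1, and the knockout hearts lay between CRE 2 and CRE 3. The SD was 101.9 CPM in CRE and 6.72 CPM in CS7KO (n = 4 each). The log2 fold change was -0.48 (SE 0.78, adjusted p = 0.850), and -1.18 (SE 0.79, adjusted p = 0.531) with no term for labelled sex, both by edgeR. Its direction turned without CRE 5 (log2 0.43), CS7KO 3 (0.0021) or CS7KO 4 (0.10).

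Per3, a period protein that is not essential for the rhythm in mice, had 19.7, 28.0, 54.0 and 109.7 CPM in CRE 1, 2, 3 and 5, against 18.1, 30.1, 21.2 and 37.4 CPM in CS7KO 1 to 4. CRE 5 and CRE 3 stood above all knockout hearts, and CRE 1 and CRE 2 stood among them. Its log2 fold change was -0.73 (SE 0.42, 95% interval -1.66 to 0.20), with an edgeR adjusted p of 0.502. The deposited table places Per3 inside the span of Camta1 on the same strand, over 41014 bases, and the sources used here do not say how reads of both genes were assigned.

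The cryptochromes, which hold the activators silent, differed from each other. Cry1 had 2.12, 8.32, 13.3 and 19.2 CPM in CRE 1, 2, 3 and 5, against 18.1, 7.86, 15.6 and 6.21 CPM in CS7KO 1 to 4. Cry2 had 22.4, 30.1, 42.2 and 25.9 CPM in CRE and 54.5, 25.8, 45.6 and 33.1 CPM in CS7KO. CS7KO 1 and CS7KO 3 were the highest knockout hearts for both genes, above all CRE hearts for Cry2 and below CRE 5 for Cry1. The log2 fold changes were 0.37 (SE 0.59, adjusted p = 0.850) for Cry1 and 0.41 (SE 0.31, adjusted p = 0.632) for Cry2 by edgeR, and that of Cry1 turned to -0.062 without CRE 1 and to -0.089 without CS7KO 1.

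**Figure D1:**
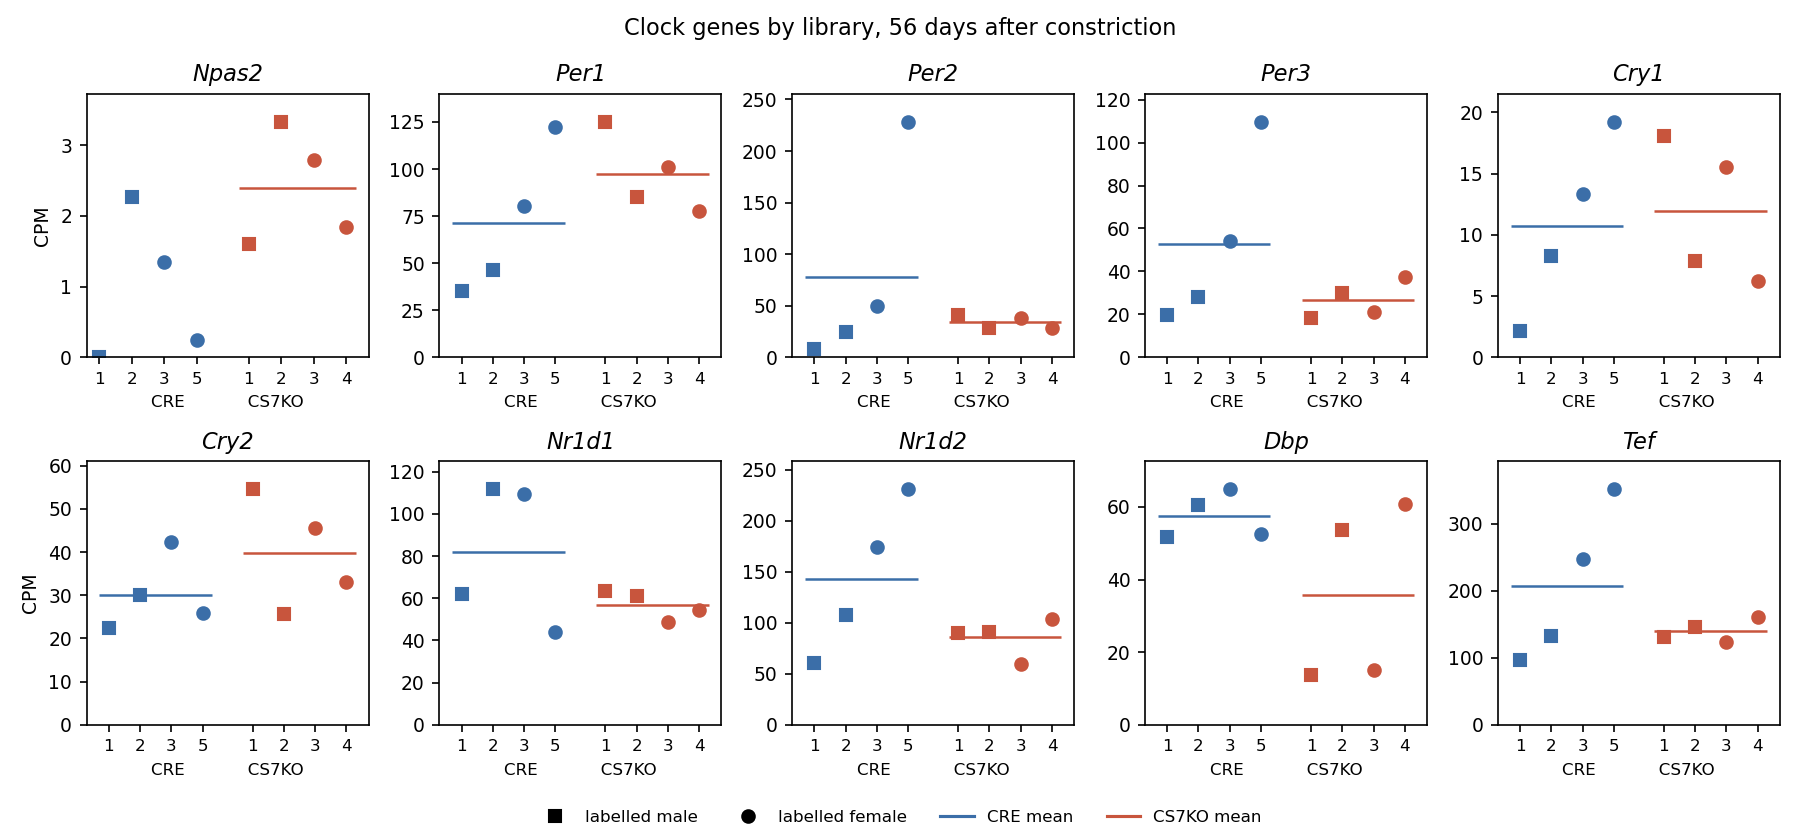
Levels of the 10 members in each library, in CPM on an axis from 0, with CRE 1, 2, 3 and 5 in blue and CS7KO 1 to 4 in red, squares for libraries labelled male, circles for those labelled female, and lines for group means (none for Npas2 in CRE, which is at 0 in CRE 1). CRE 5 is highest for Per2 at 228 CPM, Per3, Cry1, Nr1d2 and Tef, and Dbp is low in CS7KO 1 and CS7KO 3 at 13.8 and 15.04 CPM.

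The nuclear receptors that repress Arntl had unlike patterns in CRE. Nr1d1 (REV-ERB alpha) had 62.2, 111.7, 109.3 and 44.0 CPM in CRE 1, 2, 3 and 5, against 63.25, 61.0, 48.8 and 54.3 CPM in CS7KO 1 to 4. CRE 2 and CRE 3 lay above all other hearts, CRE 1 lay at the level of CS7KO 1, and CRE 5 was the lowest of the 8. Nr1d2 (REV-ERB beta) had 60.4, 107.3, 174 and 231 CPM in CRE and 89.8, 90.9, 60.1 and 103.4 CPM in CS7KO. CRE 2, CRE 3 and CRE 5 exceeded the knockout hearts for Nr1d2, and CRE 1 stood beside CS7KO 3. The log2 fold changes were -0.53 (SE 0.32, adjusted p = 0.535) for Nr1d1 and -0.60 (SE 0.38, adjusted p = 0.551) for Nr1d2 by edgeR. Nr1d1 shares 1075 bases with Thra on the opposite strand (13797 and 7630 counts over all libraries), and the sources used here do not say whether counting used strand.

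The outputs Dbp and Tef, proline and acidic amino acid-rich factors of the same family, differed most in which hearts were low. Dbp had 51.65, 60.5, 64.9 and 52.6 CPM in CRE 1, 2, 3 and 5, against 13.8, 53.7, 15.04 and 60.9 CPM in CS7KO 1 to 4. CS7KO 1, labelled male, and CS7KO 3, labelled female, lay far below the other 6 hearts, which stayed within 51.65 and 64.9 CPM. Dbp thus varied little in CRE (57.4 ± 6.36 CPM, SD, n = 4) and widely in CS7KO (35.9 ± 24.9 CPM, SD, n = 4), with a log2 fold change of -0.68 (SE 0.48, 95% interval -1.76 to 0.40, edgeR adjusted p = 0.602). It overlaps Sphk2 on the opposite strand by 737 bases (8310 and 2982 counts over all libraries). Tef had 97.0, 132.7, 247 and 352 CPM in CRE and 130.5, 145.9, 123 and 160.6 CPM in CS7KO. CRE 3 and CRE 5 lay above all knockout hearts for Tef, and CRE 1 lay below them, at a log2 fold change of -0.41 (SE 0.35, edgeR adjusted p = 0.679).

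Per length, the nuclear receptors and the outputs were the most abundant members in CRE, and Per1 stood among them in CS7KO. In CRE, Nr1d1 (26.6 ± 11.03 CPM per kb), Nr1d2 (26.5 ± 13.8), Tef (26.3 ± 14.7) and Dbp (19.2 ± 2.13) came first, and their intervals of 1 SD overlapped (SD, n = 4). Per2 (13.25 ± 17.4) and Per1 (12.6 ± 6.94) followed, then Per3 (5.50 ± 4.23), Cry2 (4.77 ± 1.37) and Cry1 (3.22 ± 2.18), where the intervals of 1 SD of neighbours overlapped. In CS7KO, Nr1d1 (18.5 ± 2.13), Tef (17.8 ± 2.13), Per1 (17.3 ± 3.73) and Nr1d2 (15.9 ± 3.40) led, and their intervals of 1 SD overlapped. The mean of Dbp (11.99 ± 8.33) came next, and its interval took in the means of Cry2 (6.29 ± 2.03) and Per2 (5.83 ± 1.15). In CS7KO 1 and CS7KO 3 Dbp (4.62 and 5.02 CPM per kb) lay below Cry2 (8.63 and 7.22) and Per2 (7.07 and 6.54). Cry1 (3.57 ± 1.73) and Per3 (2.78 ± 0.910) had lower means. Npas2 was last, at or below 0.695 CPM per kb in every heart.

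The first comparison asked whether loss of Smad7 in cardiomyocytes went with a change in clock genes of the loaded heart. By genotype 0 of 10 members passed edgeR's test at an adjusted p under 0.05 (background 0.0375% of 16002 genes), 0 had an unadjusted p under 0.05 (background 12.6%), and for 0 did the CRE and CS7KO libraries not overlap (background 10.3%). DESeq2 and limma-voom also called 0 members, and 0 had an unadjusted p under 0.05 with either. Of the 10, 4 lay higher in CS7KO (Npas2, Per1, Cry1 and Cry2) and 6 lower (Per2, Per3, Nr1d1, Nr1d2, Dbp and Tef), with a median log2 fold change of -0.44 against 0.03 over all genes. The intervals all include no change, and leave room for changes of the sizes given with each gene. Without a term for labelled sex, which the Y-linked genes contradict, the same 4 lay higher and the same 6 lower, and 0 passed.

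**Figure D2:**
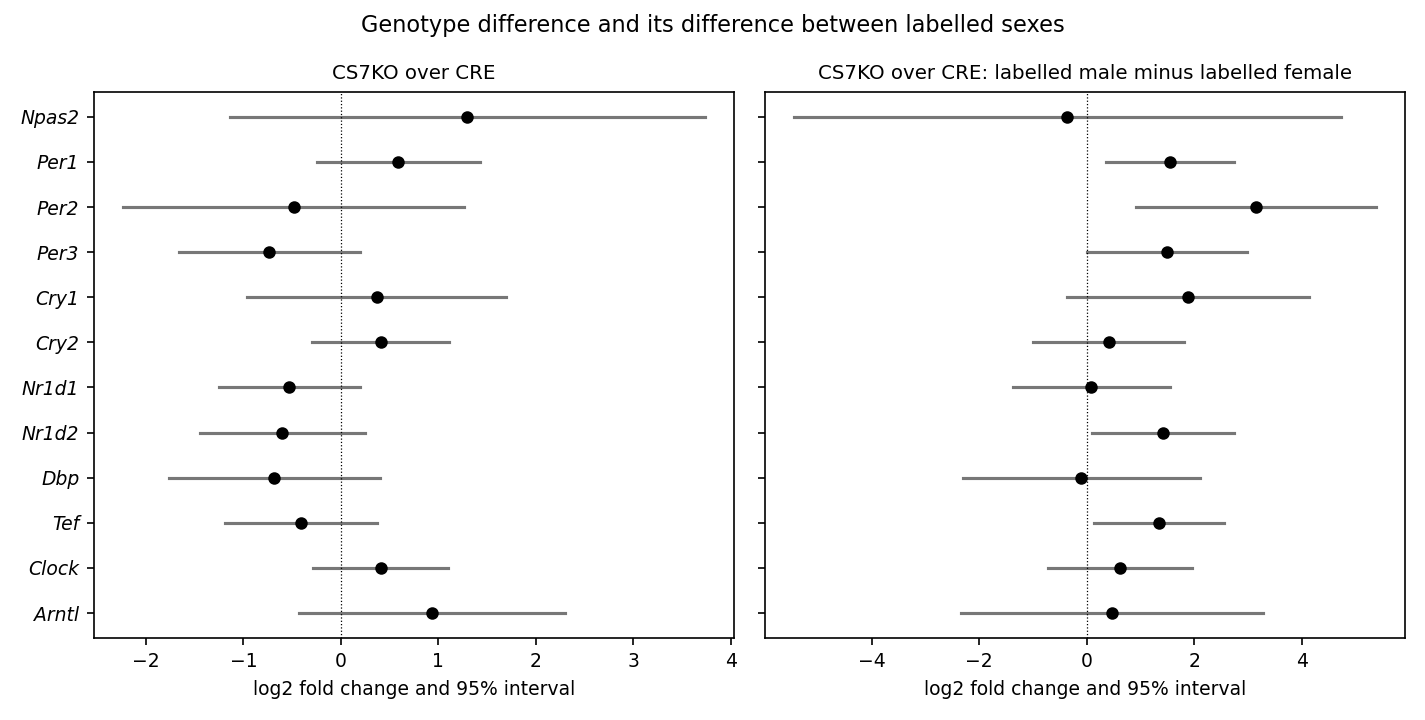
Log2 fold changes of the members, Clock and Arntl with their 95% intervals (edgeR), for CS7KO over CRE on the left and, on the right, for that difference in libraries labelled male minus that in libraries labelled female. On the left every interval crosses 0, and on the right those of Per1, Per2, Per3, Nr1d2 and Tef lie above 0 before adjustment.

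Whether the hearts differed in clock phase was read from ratios of counts within a library, which do not depend on scaling between libraries. Arntl and Dbp peak at about opposite times, so their ratio moves with phase, and no collection time was available to set it against. The log2 ratio of Arntl to Dbp was -5.33, -3.88, -3.65 and -4.18 in CRE 1, 2, 3 and 5, against -0.59, -4.19, -0.48 and -4.66 in CS7KO 1 to 4. CS7KO 1 and CS7KO 3 stood more than 3 log2 units above the next heart, CRE 3, and CS7KO 2 and CS7KO 4 lay inside the CRE range. The means were -4.26 ± 0.75 in CRE and -2.48 ± 2.25 in CS7KO (SD, n = 4 each), a difference of 1.78 that is smaller than the spread of the CS7KO hearts. It was 1.15 without CS7KO 1, 1.11 without CS7KO 3 and 2.51 without CS7KO 4. Marker sums split the knockout hearts in the same way for some cell types. Fibroblast sums were 1581 and 1590 CPM in CS7KO 1 and 3, against 748.6 and 750.4 in CS7KO 2 and 4. Most of these sums was Dcn, at 998.8 and 1250 CPM against 508 and 515. Endothelial sums were 705.3 and 658.2 against 381.1 and 313.5, and erythroid sums 1681 and 2867 against 924.5 and 910.6. Macrophage sums were lower in CS7KO 1 and 3, and cardiomyocyte and smooth muscle sums did not split so. Not every marker followed the sum of its list. Tcf21 among the fibroblast markers and Emcn among the endothelial markers did not split the knockout hearts in that way. Neither did Csf1r and Cd68 among the macrophage markers. The part of cell make-up in these ratios was not tested.

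For Arntl, other denominators put the same 2 hearts on top, by less. All these ratios share the Arntl numerator, itself highest in those hearts, so they are not separate readings of phase. Of the denominators, Dbp and Per3 were lower in CS7KO 1 and 3 than in CS7KO 2 and 4. Per2 was higher there, and Nr1d1 did not split the knockout hearts so. The log2 ratio of Arntl to Nr1d1 was -5.60, -4.76, -4.40 and -3.92 in CRE 1, 2, 3 and 5, against -2.78, -4.37, -2.18 and -4.50 in CS7KO 1 to 4. That of Arntl to Per3 was -3.94, -2.76, -3.39 and -5.24 in CRE and -0.98, -3.35, -0.98 and -3.96 in CS7KO. That of Arntl to Per2 was -2.69, -2.56, -3.26 and -6.30 in CRE and -2.17, -3.26, -1.83 and -3.57 in CS7KO. CS7KO 1 and CS7KO 3 held the 2 highest values of each ratio of Arntl, and CRE 5 the lowest of those to Per2 and Per3. Npas2 to Dbp gave -4.74, -5.59 and -7.76 in CRE 2, 3 and 5 (CRE 1 had 0 Npas2 counts) and -3.11, -4.01, -2.43 and -5.04 in CS7KO 1 to 4, highest in CS7KO 3 and CS7KO 1. The other ratios of Npas2 did not follow that order. Npas2 to Nr1d1 gave -5.63, -6.34 and -7.51 in those CRE hearts and -5.30, -4.19, -4.13 and -4.88 in the knockout hearts, where CS7KO 1 was the lowest. Npas2 to Per2 gave -3.43, -5.20 and -9.88, with -4.69, -3.085, -3.78 and -3.95 in the knockout hearts, and was highest in CS7KO 2 and then CRE 2. Npas2 to Per3 gave -3.63, -5.33 and -8.825, with -3.50, -3.18, -2.93 and -4.34 in the knockout hearts, and was highest in CS7KO 3 and then CS7KO 2.

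**Figure D3:**
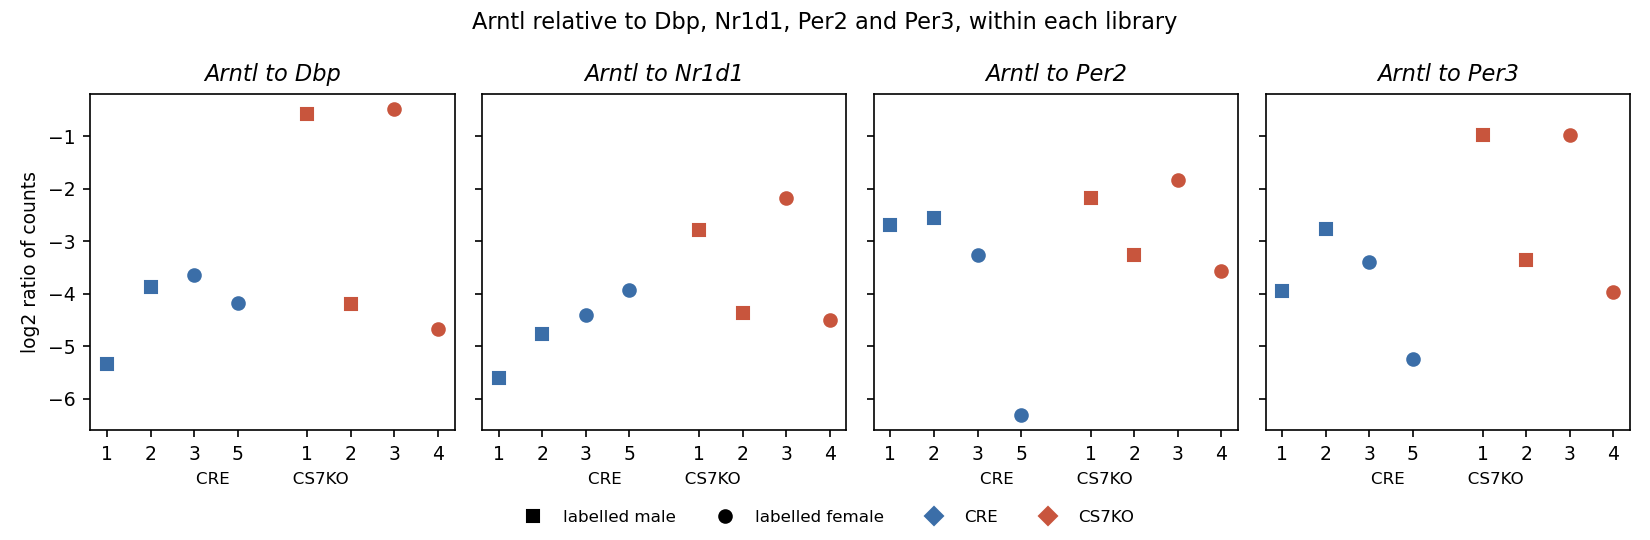
Log2 ratio of Arntl counts to those of Dbp, Nr1d1, Per2 and Per3 within each library, with CRE in blue, CS7KO in red, squares for libraries labelled male and circles for those labelled female. CS7KO 1 and CS7KO 3 are the 2 highest in every panel, at -0.59 and -0.48 for Dbp, and CRE 5 is lowest for Per2 at -6.30. The panels share the Arntl numerator and are not separate readings of phase.

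CRE 3 and CRE 5 set the pattern of a second group of members. Per2, Per3, Nr1d2 and Tef were highest in CRE 5 and next highest in CRE 3, while CRE 5 was the lowest heart for Nr1d1 and middling for Dbp at 52.6 CPM, so these clock outputs did not go together there. The same hearts had the highest endothelial marker sums (1158 and 1088 CPM, against 313.5 to 705.3 in the other 6) and smooth muscle marker sums (152.7 and 166.6 CPM, against 21.1 to 41.7), and the highest mitochondrial shares. Without these hearts the log2 fold changes by genotype were 1.04 (SE 0.53) for Per2, 0.0498 (SE 0.42) for Nr1d2 and 0.21 (SE 0.35) for Tef, in place of values below 0. That of Per3 was -0.05 (SE 0.43). These hearts were singled out as the highest for these genes, so a rise on leaving them out was built in and tests nothing. The controls left, CRE 1 and CRE 2, are both labelled male. With the term for labelled sex, the values therefore rest on CRE 1 and CRE 2 against CS7KO 1 and CS7KO 2. All 5 endothelial and all 3 smooth muscle markers were tested, and all but Pecam1 were highest in CRE 3 and CRE 5. Pecam1 had 205.8 CPM in CRE 5, below CS7KO 1 and CS7KO 3 (279.2 and 288.6 CPM). The part of these cell types in the levels of Per2, Per3, Nr1d2 and Tef was not tested. In whole hearts fewer cells of a type and less RNA per cell cannot be told apart.

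Both of those hearts are labelled female, so the contrasts of labelled sex rest on them. By labelled sex, male over female, 0 members passed (background 0% of genes), and 1, Per3, had an unadjusted p under 0.05 (background 2.67%), at a log2 difference of -1.03 (SE 0.42, edgeR adjusted p = 0.823). The median of the members was -0.55 against -0.09 over all genes, with 2 higher and 8 lower. In the libraries labelled male, mean Per2 in CS7KO was 2.14 times that in CRE, and in those labelled female 0.241 times. For Tef the ratios were 1.203 and 0.474, for Nr1d2 1.08 and 0.403, for Per3 1.01 and 0.358, and for Per1 2.57 and 0.882 (2 libraries a group).

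The difference between those ratios was tested as an interaction. There 0 members passed (background 0% of genes) and 5 of 10 had an unadjusted p under 0.05 (background 7.08%), all with the knockout relatively higher under the male label. They were Per2 at 3.15 (SE 0.99), Per1 at 1.54 (SE 0.53), Per3 at 1.5 (SE 0.66), Nr1d2 at 1.42 (SE 0.59) and Tef at 1.34 (SE 0.54) on the log2 scale, each with an edgeR adjusted p of 0.667. The median of the 10 was 1.38 against 0.19 over all genes. Leaving out a library left 1 library alone in a group, so those fits are given by size only. Per2 then ran from 1.455 to 4.13, Per1 from 1.02 to 1.82 and Per3 from 0.68 to 1.97. Nr1d2 ran from 0.88 to 1.90 and Tef from 0.86 to 1.60. The 4.13 of Per2 came without CRE 2, where CRE 1, with its many genes at 0, was the only control labelled male. With library sizes left unscaled, 1 of the 10 had an unadjusted p under 0.05. Since every library holds Y-linked RNA, this contrast compares libraries by their label and not by a sex seen in the data.

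Of 10 tested partners in the clock loop (Rorb, a receptor that activates Arntl, was not tested), 7 lay higher and 3 lower in CS7KO, 0 passed, 2 had an unadjusted p under 0.05, and the median was 0.32. Over all genes tested 8298 of 16002 lay higher, 12.6% had an unadjusted p under 0.05, 10.3% had groups without overlap, and the median was 0.03. Nfil3, the repressor that competes with DBP at D-boxes, had 4.07, 4.84, 5.14 and 6.17 CPM in CRE 1, 2, 3 and 5, against 24.3, 6.88, 14.0 and 6.94 CPM in CS7KO 1 to 4 (log2 1.36, SE 0.45, edgeR adjusted p = 0.301). Hlf, the third factor beside Dbp and Tef, had 18.1, 23.8, 26.4 and 25.6 CPM in CRE and 9.52, 17.2, 11.99 and 17.7 CPM in CS7KO (log2 -0.73, SE 0.28, edgeR adjusted p = 0.339). Both genes separated the groups without overlap, and within CS7KO hearts 1 and 3 were the highest for Nfil3 and the lowest for Hlf. For Hlf the order of the hearts was that of Dbp at the low end, with CS7KO 1 lowest and CS7KO 3 next.

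Of 9 tested genes that modify or degrade clock proteins, 8 were higher and 1 lower in CS7KO (8298 of 16002 over all genes), with a median log2 fold change of 0.44. None passed, and 1 had an unadjusted p under 0.05, a share near the 12.6% of all genes. That gene was Btrc, a ubiquitin ligase subunit that marks PER proteins for destruction, at 5.66, 12.3, 12.1 and 10.8 CPM in CRE 1, 2, 3 and 5, against 16.3, 16.0, 15.6 and 16.8 CPM in CS7KO 1 to 4 (log2 0.68, SE 0.30, edgeR adjusted p = 0.387). Usp2, a deubiquitinase with a clock-driven rhythm, had 79.9, 57.8, 46.8 and 34.7 CPM in CRE and 71.8, 79.2, 78.3 and 78.7 CPM in CS7KO (log2 0.54, SE 0.27, edgeR adjusted p = 0.441). The knockout hearts were nearly level for both genes, unlike for Dbp and Nfil3.

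Of 12 tested outputs of the cardiac clock, 10 were higher and 2 lower in CS7KO (8298 of 16002 over all genes), with a median of 0.77 (0.03 over all genes). None passed, and 5 had an unadjusted p under 0.05 (12.6% of all genes) and no overlap of the groups (10.3% of all genes). Klf15, a factor that drives rhythms of amino acid metabolism and repolarisation in heart, had 23.0, 19.8, 18.1 and 11.98 CPM in CRE 1, 2, 3 and 5, against 60.4, 43.1, 62.6 and 46.2 CPM in CS7KO 1 to 4. Every knockout heart had more Klf15 than any CRE heart, and the means were 18.2 ± 4.64 in CRE and 53.1 ± 9.85 in CS7KO (CPM ± SD, n = 4 each; log2 1.56, SE 0.27, edgeR adjusted p = 0.156). Pik3r1, the regulatory subunit of PI3 kinase, had 36.3, 80.6, 52.7 and 26.5 CPM in CRE and 213, 89.8, 132.8 and 99.7 CPM in CS7KO (log2 1.46, SE 0.39, edgeR adjusted p = 0.287). DESeq2 called Klf15 and Pik3r1 (adjusted p = 1.03e-04 and 0.0149), but it called 503 of 16002 genes by genotype, where edgeR called 6. With limma-voom neither passed (adjusted p = 0.117 and 0.193). Both passed with edgeR and no filter (adjusted p = 0.00213 and 0.00388), where 338 of 48657 genes were called. Nampt, an enzyme of NAD synthesis, at 0.76 (SE 0.26), and Wee1, a cell cycle kinase, at 1.54 (SE 0.45) on the log2 scale, were also among the 5; both were picked out with their values in view. For Klf15 all 4 knockout hearts lay above the CRE range, whereas for Dbp CS7KO 2 and CS7KO 4 lay inside it. Within CS7KO, hearts 1 and 3 were the highest for Klf15, Pik3r1 and Wee1 and the lowest for Dbp. Nampt went the other way from those outputs, at 119.8 and 132 CPM in CS7KO 1 and 3 against 150.7 and 179.7 in CS7KO 2 and 4.

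Glucocorticoid hormone follows the time of day and acts on Per1 and Klf15, and genes that respond to it were read for that reason. Of 8 tested, 7 lay higher and 1 lower in CS7KO (8298 of 16002 over all genes), with a median of 0.81 (0.03 over all genes). None passed, 3 had an unadjusted p under 0.05 (12.6% of all genes), and 0 were without overlap (10.3% of all genes). Fkbp5, a chaperone partner of the hormone's receptor, had 13.9, 32.1, 60.3 and 30 CPM in CRE 1, 2, 3 and 5, against 263, 52.4, 157.7 and 55.0 CPM in CS7KO 1 to 4 (log2 2.00, SE 0.63, edgeR adjusted p = 0.295). Zbtb16, a transcription factor, had 6.27, 15.7, 24.8 and 11.9 CPM in CRE and 96.7, 17.9, 70.4 and 22.6 CPM in CS7KO (log2 1.86, SE 0.61, edgeR adjusted p = 0.295). For both genes CS7KO 1 and CS7KO 3, the hearts with little Dbp, were far above the rest, and CS7KO 2 and CS7KO 4 lay inside the CRE range. Cdkn1a, Errfi1 and Klf9 were also highest in CS7KO 1 and CS7KO 3, but the rest of the list was not. Sgk1 (263.9 and 232.6 CPM) and Dusp1 (368.3 and 261.2 CPM) were highest in CRE 5 and then CRE 3. Tsc22d3 was level in CRE 3 and CS7KO 3 (209.4 and 210.1 CPM). DESeq2 called Fkbp5 and Zbtb16 by genotype (adjusted p = 0.0199 and 0.0373), among 503 of 16002 genes that it called. With limma-voom neither passed (adjusted p = 0.242 and 0.289). Both passed with edgeR and no filter (adjusted p = 1.68e-05 and 1.24e-04), where 338 of 48657 genes were called. The part of the hormone in the levels of Dbp, Arntl or Per1 was not tested.

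Genes that follow body temperature, which also sets peripheral clocks, form a mixed list of cold-induced and heat shock genes. A tally of directions over both kinds therefore does not describe a shift in temperature, which was not tested. Of 8 tested, 4 lay higher and 4 lower, with a median of -0.40, 0 passing and 3 with an unadjusted p under 0.05 (12.6% of all genes). Higher were Rbm3, Cirbp (log2 0.53), Hspa8 (0.14) and Hsp90aa1 (0.23). Lower were Dnajb1, Hspa1a (-1.83), Hspa1b (-2.08) and Hsph1 (-1.04), each of them highest in CRE 5. Dnajb1, a heat shock cochaperone, had 32.6, 18.8, 16.3 and 47.8 CPM in CRE 1, 2, 3 and 5, against 16.4, 16.0, 14.0 and 13.6 CPM in CS7KO 1 to 4 (log2 -0.94, SE 0.36, edgeR adjusted p = 0.341). Rbm3, an RNA-binding protein induced by cold, had 42.9, 55.6, 55.6 and 37.3 CPM in CRE and 85.4, 59.6, 95.4 and 64.7 CPM in CS7KO (log2 0.67, SE 0.27, edgeR adjusted p = 0.355). Rbm3 was highest in CS7KO 3 and CS7KO 1, and Dnajb1 was highest in CRE 5, where Per2 was also highest.

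**Figure D4:**
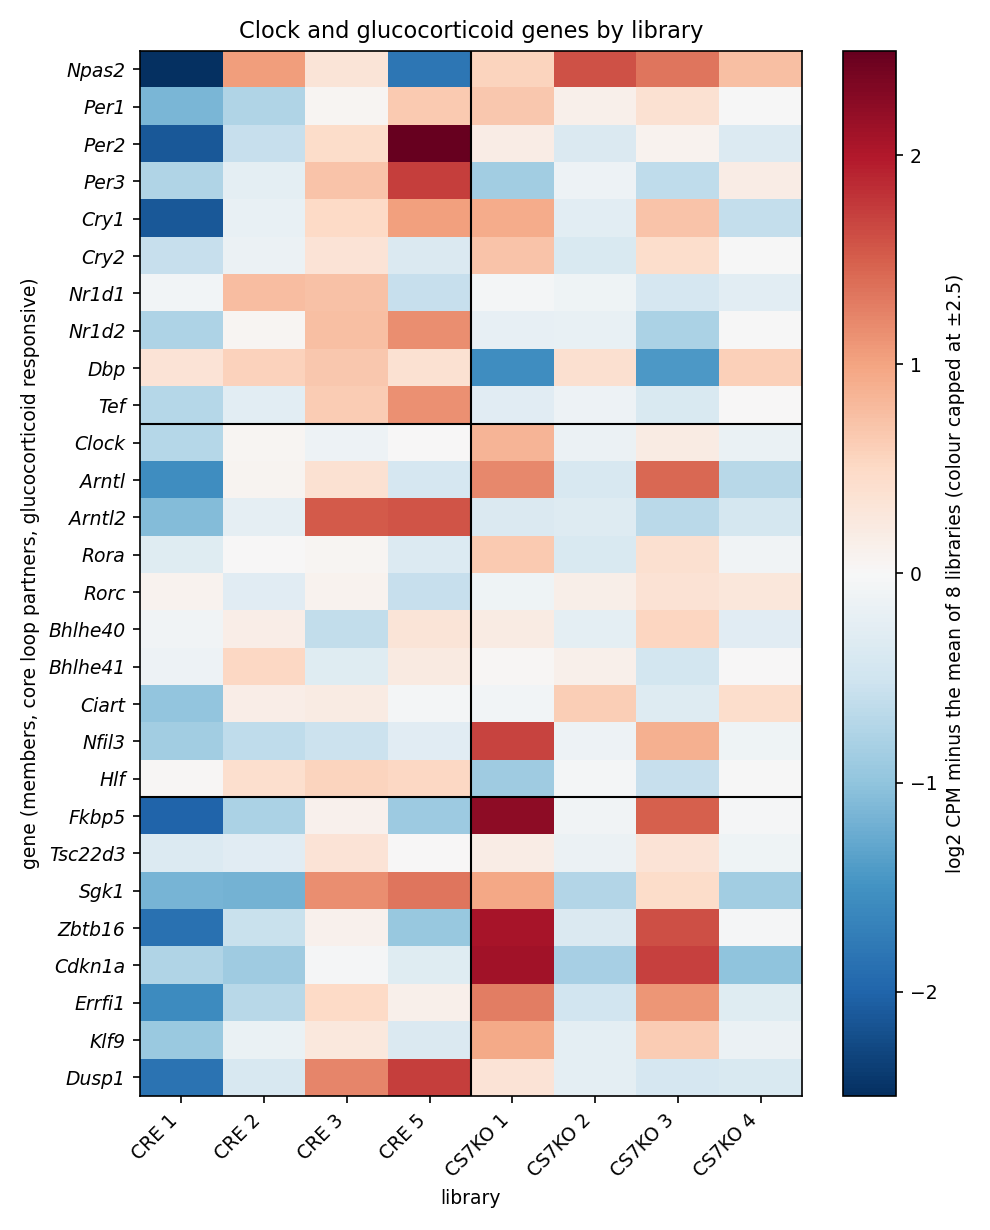
Log2 CPM of each gene minus its mean over the 8 libraries (colour, capped at 2.5 either way), for the 10 members at the top, the tested core loop partners in the middle and the glucocorticoid responsive genes at the bottom. Dbp and Hlf are low in CS7KO 1 and CS7KO 3 while Arntl, Nfil3, Fkbp5 and Zbtb16 are high there, and Per2, Per3, Nr1d2 and Tef are high in CRE 3 and CRE 5.

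The genes most like Dbp across the 8 libraries were not members. By Pearson's r of log2 CPM, a description over libraries that also differ in depth and mitochondrial share, they were Cfdp1, a chromatin factor (r = 0.972), Tgtp2, an interferon-induced GTPase (0.969), Epha4, an ephrin receptor (0.941), Pacc1, a chloride channel (0.934), and Thap2 (0.918). Of these only Cfdp1 stayed among the 5 nearest without CRE 1, where Iigp1 and Psme1 came first, and Cfdp1 left them when mitochondrial genes were removed. Among 16001 other genes the members ranked from 1313 for Per3 (r = 0.537) through 1858 for Nr1d2 (0.47), 2864 for Nr1d1 (0.368) and 2974 for Tef (0.357) to 15644 for Cry2 (-0.711). Clock (-0.732) and Arntl (-0.759) ranked at 15709 and 15781, near the opposite end. For Npas2 the nearest were Dnal1, a dynein light chain (0.983), Zdhhc16, a palmitoyltransferase (0.982), Mppe1 (0.976), Nop14, a factor of ribosome assembly (0.973), and Cdc23, a subunit of the anaphase-promoting complex (0.97). That likeness rested on the 0 in CRE 1. Without that library the nearest to Npas2 was Rpp30, and the r of Per2 went from 0.127 to -0.946. The second r still includes CRE 5, where Npas2 had 2 counts, under the floor of 3, and Per2 its highest level, 228 CPM. It was not computed without CRE 5, so neither r is a firm description of Npas2 and Per2.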

How the data were processed

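RNA was extracted with Trizol and sequenced by a commercial provider from Illumina libraries, per the labels' protocols. The authors deposited raw read counts per gene, without normalization, in 1 table of 8 libraries. CASAVA, TopHat2 2.0, Cufflinks 2.1.1, HTSeq 0.6.1, mm10 and GRCm38.p6 are named, with no role given, per the submitters' processing notes. Deposited coordinates equalled those of GENCODE M21 (GRCm38) for 2.92% of genes matched by identifier and for 0 of the 10 members, so the build of the table is unsettled and its coordinates are not printed; promoter sequences came from RefSeq on GRCm38.p6.

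Genes were kept by filterByExpr (minimum count 10, minimum total 15) and fitted with edgeR 4.0.16 in R 4.3.3, with TMM scaling, a robust quasi-likelihood model of genotype and labelled sex, and Benjamini-Hochberg adjustment over 16002 genes. An adjusted p under 0.05 counted as passing. The interaction used 4 groups of 2 libraries. Standard errors are the size of the log2 difference over the root of F, and levels per length used the deposited gene length. The test was checked on simulated counts. P-values measure the spread between these libraries only. Total counts per library set a floor of 3 counts at 0.0643 to 0.363 CPM, which covers counting error only, and no library was a duplicate, since the lowest chi-square between replicates was 11.03 times its degrees of freedom.

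The members, the other lists and the settings were chosen with earlier results of these data known. Named genes were the members, Clock, Arntl, Smad7, the genes of each other list that passed or else the 2 with the smallest p, and the 5 protein-coding genes of at least 5 CPM most like Dbp and most like Npas2. Alternatives were limma-voom (limma 3.58.1), DESeq2 1.42.0, other scalings and filters, no term for sex, a block for library number, and libraries left out. The values of 1 gene of the cardiac output list are not reported here.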

Additional observations from a re-analysis of the deposited data

Results flagged for a closer look

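Among 56 groups of 4 libraries examined for a library far from the others, 1 held one, and chance alone flags about 1 in 20 such groups. Usp2 stood at 71.76 CPM in CS7KO 1, below the 78.3 to 79.2 CPM of the other knockout hearts.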

How the results depend on the processing

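Over the members and other named genes, 779 refitted log2 values kept direction and side of the threshold, 10 passed only in the alternative and 43 changed sign; the cause of the changes was not tested. Members called by genotype and by labelled sex stayed at 0 in every setting run. By interaction, among fits of all 8 libraries, Per2 alone was called, with no filter (1 member, log2 2.85, edgeR adjusted p = 0.0181). That setting called 48 of 48657 genes. Fits of the interaction that leave out a library hold 1 library alone in a group, so no calls are given for them.

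Genes called by genotype, 6 in the reported fit, numbered 503 with DESeq2, 338 with no filter, 0 among protein-coding genes only, 16 without CRE 1 and CRE 5, 3 without CRE 3 and CRE 5, and 3 (without CS7KO 3) to 14 (without CRE 1) with a single library left out. Labelled sex, with 0 genes, gave 7 with no filter. The interaction, with 0 genes, gave 44 with DESeq2, 48 with no filter and 0 to 1476 (without CRE 2) with a single library left out.

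By genotype, Per2 turned to 0.70 with the replicate block of libraries 1 to 3, 0.011 without CRE 1 and CRE 5, and 1.04 without CRE 3 and CRE 5, where Nr1d2 turned to 0.0498 and Tef to 0.21. With single libraries left out Per2 ran from -1.12 to 0.43 and Cry1 from -0.089 to 0.79. Other members kept their sign, but their values moved, from 0.89 (without CRE 1) to 2.76 (without CRE 2) for Npas2, 0.34 (CS7KO 1) to 0.90 (CRE 5) for Per1, -1.03 (CS7KO 2) to -0.33 (CRE 5) for Per3, 0.12 (CS7KO 1) to 0.61 (CRE 3) for Cry2, -0.70 (CRE 5) to -0.21 (CRE 3) for Nr1d1, -0.86 (CRE 1) to -0.30 (CS7KO 3) for Nr1d2, -1.19 (CS7KO 4) to -0.40 (CS7KO 1) for Dbp and -0.60 (CRE 1) to -0.14 (CRE 5) for Tef. By labelled sex without CRE 3 and CRE 5, Per1 turned to 0.25, Per2 to 0.071, Cry1 to 0.27, Cry2 to 0.048 and Nr1d2 to 0.15. Cry1 turned to 0.044 without CRE 1 and CRE 5 and Npas2 to -0.37 with limma-voom. Cry2 and Dbp turned to 0.097 and 0.24 on total counts without TMM, and to 0.047 and 0.0597 with no filter. With single libraries left out Npas2 ran from -1.16 to 0.72, Cry2 from -0.47 to 0.061 and Dbp from -0.59 to 0.39. In the interaction Npas2 turned to 1.76 with limma-voom and Cry2 to -0.20 on total counts. Nr1d1 turned to -0.018 without mitochondrial genes, -0.046 without the 10 most counted genes, -0.42 on total counts, -0.26 with no filter and -0.025 without CRE 1 and CRE 5. With single libraries left out Npas2 ran from -2.12 to 7.49, Cry2 from -0.23 to 0.85, Nr1d1 from -0.71 to 0.58 and Dbp from -1.38 to 1.24.

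Libraries of the same number did not deviate together for 1 and 2 (r = 0.0424 and -0.0877). For 3 the r was 0.352, the highest of any CRE and CS7KO library. Libraries were not paired in the reported fit, and the block for library number called 9 genes and 0 members. Total counts without TMM moved the median of all genes by 0.28, 0.33 and -0.64 for genotype, sex and interaction. The interaction could not be fitted without CRE 3 and CRE 5. With 4 hearts a group, no collection time and controls of unlike quality, these data could not show changes smaller than the intervals given with each gene.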
